A study of Mus musculus with 6 samples.

Results

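The nuclear-encoded subunits of oxidative phosphorylation were compared between lung B cells of 5xFAD mice and of wild-type (WT) mice. The subunit genes were chosen by symbol alone, from the naming patterns of complexes I to V of the respiratory chain (the Nduf, Sdh, Uqcr and Cyc1, Cox4 to Cox8, and Atp5 symbols), and 86 of the 22481 genes in the deposited table carried such a symbol. Complex I held 37 of them, complex II 4, complex III 9, complex IV 18 and complex V 18. Ndufa4 was counted with complex I by its symbol, although its protein is known as a complex IV subunit. Atp5sl and Atp5s were counted with complex V by their symbols alone, and whether their proteins are subunits of it was not checked. Both groups were C57BL/6 mice aged 3 months, 3 samples each: 5xFAD, a transgenic line used as a model of Alzheimer's disease, whose transgenes are driven by the Thy1 promoter, which is active mainly in neurons, and WT, which carries no such transgene. Neither sex nor zygosity nor pooling of animals is stated in the labels used here, nor is it stated whether each sample came from its own animal, so every p given here rests on sample-to-sample spread, which may be technical. B cells were enriched from lung with magnetic beads and frozen, and libraries were made from total RNA after removal of ribosomal RNA.

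Oxidative phosphorylation takes place in the inner mitochondrial membrane. Complex I and complex II pass electrons from NADH and succinate to ubiquinone, complex III passes them on to cytochrome c, complex IV passes them to oxygen, and complex V uses the proton gradient built by complexes I, III and IV to make ATP. Most subunits are encoded in the nucleus, and a small core set of complexes I, III, IV and V is encoded by mitochondrial DNA. Resting B cells have a modest demand for ATP, and respiration rises when they are activated.

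The promoters of these genes are known for binding sites of NRF-1 and of ETS-family factors such as GABP, which control many respiratory chain genes together, so the 250 bases before the RefSeq start were read for 70 of the 86 genes that matched a RefSeq promoter (build GRCm38.p6). On either strand, the NRF-1 motif, a palindrome rich in G and C with 1 free base, was in 12 of these 70 promoters (17.1%), against 5.54% of the promoters of all 16328 matched genes and 8.95% of those of the tested genes. The ETS motif CCGGAAG was in 15.7% of the subunit promoters, against 9.44% of all and 14.8% of the tested genes' promoters. The YY1 motif AANATGGC was in 5.71%, against 3.78% of all and 4.82% of the tested genes' promoters. The SP1 motif GGGCGG was in 35.7%, against 44.3% of all and 61.3% of the tested genes' promoters. The 4 promoters printed here show how the motifs lie in genes with the highest or second-highest mean FPKM of their complex (Sdha, Uqcrh and Cox6a1) and in a core subunit gene listed at 0 in all WT libraries (Ndufs8). Each is written 5′ to 3′ on the gene's strand and ends at the base before the start, and capitals mark the NRF-1, ETS and YY1 matches on either strand.
Sdha (GRCm38.p6, chr13:74350241-74350490, minus strand): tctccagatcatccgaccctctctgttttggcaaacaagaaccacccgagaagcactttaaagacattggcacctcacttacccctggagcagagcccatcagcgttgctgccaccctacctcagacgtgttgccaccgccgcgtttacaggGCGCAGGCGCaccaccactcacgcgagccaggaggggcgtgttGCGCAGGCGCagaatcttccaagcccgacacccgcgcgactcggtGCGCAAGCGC
Cox6a1 (GRCm38.p6, chr5:115348959-115349208, minus strand): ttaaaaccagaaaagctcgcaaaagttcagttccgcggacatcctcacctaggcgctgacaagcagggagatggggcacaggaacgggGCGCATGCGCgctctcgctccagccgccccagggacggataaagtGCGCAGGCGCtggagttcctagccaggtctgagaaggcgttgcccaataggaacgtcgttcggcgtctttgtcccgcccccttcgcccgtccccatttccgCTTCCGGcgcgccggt
Uqcrh (GRCm38.p6, chr4:116075071-116075320, minus strand): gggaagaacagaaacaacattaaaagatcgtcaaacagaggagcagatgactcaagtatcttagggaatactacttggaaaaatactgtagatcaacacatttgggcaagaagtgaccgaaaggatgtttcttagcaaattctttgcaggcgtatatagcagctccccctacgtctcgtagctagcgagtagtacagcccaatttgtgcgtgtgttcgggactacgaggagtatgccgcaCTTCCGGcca
Ndufs8 (GRCm38.p6, chr19:3912775-3913024, minus strand): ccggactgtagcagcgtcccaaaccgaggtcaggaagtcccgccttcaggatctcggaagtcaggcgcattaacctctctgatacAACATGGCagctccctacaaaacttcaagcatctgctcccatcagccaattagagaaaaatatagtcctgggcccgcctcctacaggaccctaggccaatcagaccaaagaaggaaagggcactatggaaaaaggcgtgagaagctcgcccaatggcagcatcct
The capitals in Sdha are 3 NRF-1 matches, those in Cox6a1 are 2 NRF-1 matches and 1 ETS match, that in Uqcrh is 1 ETS match and that in Ndufs8 is 1 YY1 match. The promoters of Ndufa3 and Atp5b, the highest by mean FPKM in complexes I and V, and of Atp5s are not printed. They held no NRF-1, ETS or YY1 match. A match is a run of letters and was not measured as a bound site here. Among the tested subunit genes with a matched promoter, the 10 with an NRF-1 match had a median log2 fold change of 0.86 in 5xFAD over WT, and the 52 without one had a median of 0.79. With and without an ETS match the medians were 1.86 (9 genes) and 0.62 (53 genes). They were 1.11 (4 genes) and 0.84 (58 genes) for YY1, and 0.98 (21 genes) and 0.66 (41 genes) for SP1. These differences were not tested.

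The libraries held between 693172 and 782297 estimated counts in 5xFAD and between 628581 and 692912 in WT, of which 1 gene, Lars2, took 37.5% to 45.7%. At these depths the median subunit gene had 4.99, 13.2 and 11.0 counts in the 3 5xFAD libraries, against 4.94, 6.03 and 2.08 in the 3 WT libraries. Of the genes with at least 1 FPKM (fragments per kilobase of transcript, scaled to the library's reads) on average over the 6 libraries, 7.20%, 3.62% and 5.29% were under 0.5 counts in the 5xFAD libraries and 15.4%, 6.82% and 24.9% in the WT libraries, so WT replicate 3 had the most such genes. The B-cell markers were detected in every library, and all 10 in the table had a higher fitted level in 5xFAD (6 of them at an unadjusted p under 0.05). Their summed FPKM was 650, 686 and 389 in 5xFAD, against 344, 292 and 311 in WT. The libraries also held RNA of other cell types: the 10 endothelial markers summed to 365, 336 and 278 FPKM in 5xFAD and to 375, 495 and 425 FPKM in WT, with all 10 fitted lower in 5xFAD, and 6 epithelial markers summed to 218, 204 and 172 FPKM in 5xFAD and to 173, 376 and 379 FPKM in WT. The 7 T-cell markers summed to 14.8, 23.1 and 29.2 FPKM in 5xFAD and to 7.86, 7.45 and 1.84 FPKM in WT. The 6 macrophage markers summed to 275, 186 and 479 FPKM in 5xFAD and to 350, 316 and 207 FPKM in WT, and the 4 neutrophil markers to 315, 233 and 522 FPKM in 5xFAD and to 498, 184 and 261 FPKM in WT. The 5 fibroblast markers summed to 118, 36.7 and 62.0 FPKM in 5xFAD and to 24.9, 38.1 and 52.4 FPKM in WT. The 4 erythroid markers summed to 5.61, 13.2 and 10.7 FPKM in 5xFAD and were listed at 0 in all WT libraries, with Alas2 at 0 in all 6. The part of cell makeup and of detection in the subunit values was not tested. In bulk RNA, fewer cells of a type and less RNA per cell cannot be told apart.

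No nuclear-encoded subunit gene passed the test between 5xFAD and WT. Of the 86 genes, 75 had a mean of at least 1 FPKM and were tested, and 0 of the 75 were called by edgeR's quasi-likelihood test at an adjusted p under 0.05, where 0.114% of the 9651 genes tested were called (0.104% higher and 0.0104% lower in 5xFAD). At an unadjusted p under 0.05, 6 subunit genes were higher in 5xFAD and 3 lower, or 8% and 4% of those tested, close to the shares over all tested genes (8.43% higher and 3.55% lower). DESeq2 called 0 subunit genes (0.642% of all tested genes) and put 3 higher and 2 lower at an unadjusted p under 0.05 (7.24% and 4.09% of all). On the log2(FPKM + 1) scale, limma called 0 genes in all. It put 16 of the 75 subunit genes higher and 2 lower at an unadjusted p under 0.05, against 9.19% and 2.7% of all. In limma the share of subunit genes put higher was thus above that of all tested genes, unlike in edgeR. The median log2 fold change of the tested subunit genes was 0.74, against 0.11 over all tested genes, and 47 of the 75 (62.7%) had a fold change above 0, against 54.1% of all. By the difference of mean log2(FPKM + 1), 54 of the 75 (72%) lay above 0, against 60.2% of all. With genes seen in 1 genotype alone set to their bound, the medians were 0.66 and 0.10. Of the 75, 61 reached 1 FPKM in both genotypes, 12 in 5xFAD alone and 2 in WT alone. Since a gene of the last 2 kinds passed only through the genotype where it was high, the median over the tested genes describes these libraries and is no test.

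The summed level of the subunits did not separate the genotypes, while more of the subunit genes were detected in 5xFAD. Their summed level was 2350, 2822 and 2931 CPM (counts scaled to a common library size, with Lars2 left out of the totals) in the 5xFAD libraries (2701 ± 309, SD, n = 3) and 3135, 2350 and 2900 in the WT libraries (2795 ± 403, SD, n = 3). These groups overlapped over nearly their whole range. On the FPKM scale the sums were 698, 879 and 880 in 5xFAD, against 932, 633 and 554 in WT, and again overlapped. At least 0.5 counts were found for 67, 79 and 72 of the 86 genes in the 5xFAD libraries, against 59, 66 and 45 in the WT libraries, so every 5xFAD library detected more than every WT library. At the smallest library's 328399 reads other than Lars2, 64.9, 77.2 and 70.7 subunit genes would be expected in 5xFAD and 57.5, 64.0 and 45 in WT. These did not overlap, but the nearest values, 64.9 and 64.0, lay close together. The number of genes of any kind detected ran the same way, at 10490, 11782 and 11163 in 5xFAD against 9171, 10381 and 7928 in WT. At that smallest total, 10169, 11434 and 10972 genes of any kind would be expected in 5xFAD, against 9029, 10245 and 7927 in WT, and these overlapped.

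**Figure D1:**
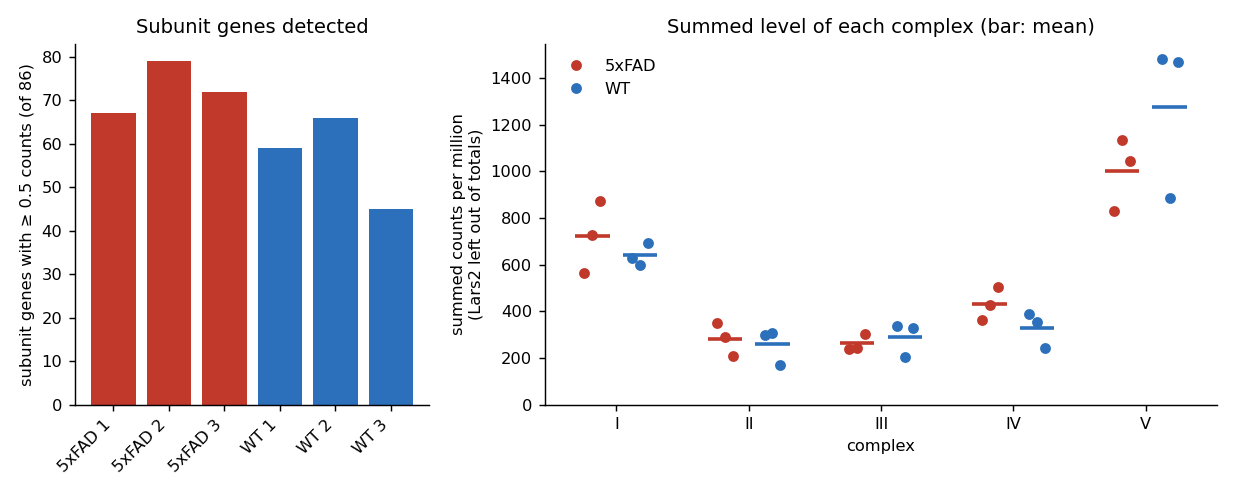
Left, the number of the 86 subunit genes with at least 0.5 counts in each library (bars); right, the summed CPM of each complex with Lars2 left out of the totals, 1 point per library and a bar at the mean of 3. The 5xFAD libraries detected 67 to 79 subunit genes and the WT libraries 45 to 66, while the summed levels of each complex overlapped between the genotypes.

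By complex, the medians of the log2 fold changes were above 0 in all 5 and none separated the groups by summed level. The median was 1.12 for the 33 tested genes of complex I, 0.34 for the 4 of complex II, 0.14 for the 8 of complex III, 0.23 for the 13 of complex IV and 0.98 for the 17 of complex V, and 21, 3, 4, 8 and 11 of them lay above 0. The differences between complexes were not tested. The median of complex II was -0.15 without WT replicate 3, that of complex III was -0.25 without 5xFAD replicate 2 and -0.22 without WT replicate 2, and that of complex IV was -0.18 without 5xFAD replicate 3. The summed CPM of complex I was 566, 729 and 874 in 5xFAD, against 630, 599 and 691 in WT. That of complex II was 350, 288 and 208 in 5xFAD, against 297, 307 and 171 in WT, and that of complex III was 239, 243 and 304 in 5xFAD, against 339, 204 and 329 in WT. The summed CPM of complex IV was 364, 426 and 502 in 5xFAD, against 388, 355 and 242 in WT, and that of complex V was 831, 1136 and 1043 in 5xFAD, against 1481, 885 and 1468 in WT. By summed CPM, complexes III and V had the lower mean in 5xFAD and a median fold change above 0. By summed FPKM the mean of complex III was higher in 5xFAD, at 84.7 against 61.1 in WT, with overlap. That of complex V was again lower in 5xFAD, at 244 against 279 in WT. In complex V the fold changes of the most abundant genes, Atp5b and Atp5a1, lay below 0.

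**Figure D2:**
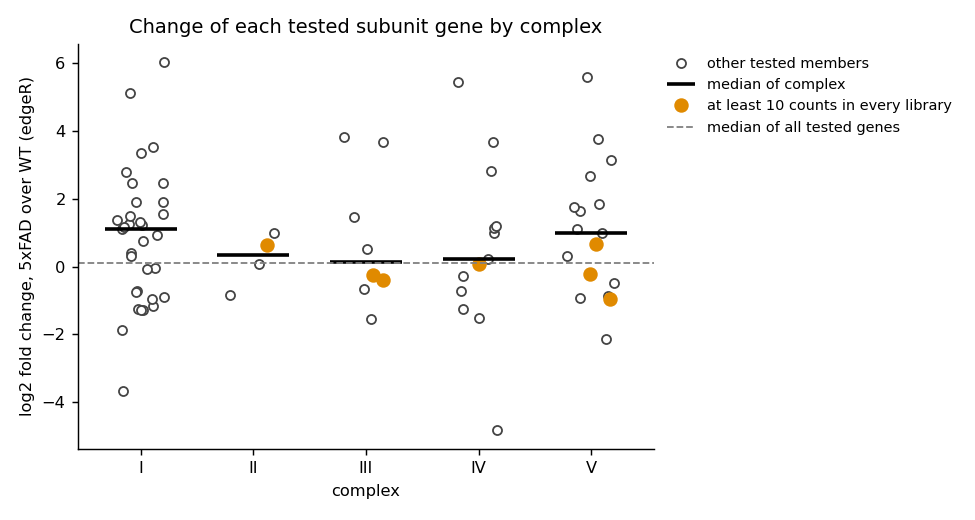
Log2 fold change of 5xFAD over WT (edgeR) for each of the 75 tested subunit genes, by complex, with the median of each complex (black bar) and of all tested genes (dashed line). The 7 genes with at least 10 counts in every library (filled) lie between -0.96 and 0.66, and the widest fold changes belong to genes with fewer counts.

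Complex I, the NADH dehydrogenase, is built of core subunits that carry the flavin and the iron-sulfur clusters and of many accessory subunits. Its most abundant tested genes were Ndufa3 and Ndufa7, both accessory subunits. Ndufa3 had 0, 22.9 and 17.9 FPKM in the 5xFAD libraries, against 54.0, 14.7 and 7.80 FPKM in the WT libraries. Ndufa7 had 16.4, 17.3 and 44.5 FPKM in 5xFAD, against 0, 31.6 and 4.61 FPKM in WT. For each gene 1 library was listed at 0 and the groups overlapped, with log2 fold changes of -0.74 ± 1.49 and 1.36 ± 1.33 (edgeR, SE; adjusted p = 0.903 and 0.758). The value for Ndufa7 was 0.58 without 5xFAD replicate 3 and 3.93 without WT replicate 2.

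Ndufs8 encodes a core subunit that carries iron-sulfur clusters. Its log2 fold change fitted by edgeR, 6.02, was the largest among the 33 tested complex I genes and among all tested subunit genes. That value depends on the prior count because WT was at 0, and genes outside the subunit list had larger ones. It had 0.997, 9.46 and 15.6 estimated counts in 5xFAD and 0 in all 3 WT libraries, over the locus chr19:3908870-3912717 on the minus strand (mm10). Against a floor of 3 counts over the WT group, its level was at least 7.92-fold higher in 5xFAD, and edgeR gave an unadjusted p of 0.0128 and an adjusted p of 0.305. Its promoter, printed above, holds the YY1 letters. Ndufs6, a zinc-binding accessory subunit, had 1.99, 10.4 and 1.83 counts in 5xFAD, against 0.493, 0 and 0 in WT. It was at least 4.33-fold higher in 5xFAD against the same floor (adjusted p = 0.348 by edgeR). No complex I gene was called, and 7 of its 33 tested genes had every 5xFAD FPKM above every WT FPKM, as had 13% of all tested genes. The lowest fitted fold change of complex I was that of the accessory subunit Ndufa12, with 0, 0.946 and 0 counts in 5xFAD, against 12.9, 3.01 and 0 counts in WT, named here after its values were seen.

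Complex II, succinate dehydrogenase, is also an enzyme of the citrate cycle and has no subunit encoded by mitochondrial DNA. Sdha, its flavoprotein, had 107, 78.5 and 40.4 estimated counts in 5xFAD, against 68.2, 44.2 and 29.1 in WT. The groups overlapped, and its log2 fold change was 0.62 ± 0.55 (edgeR, SE; adjusted p = 0.730) and 0.10 without 5xFAD replicate 1. Sdhb, the iron-sulfur subunit, had 11.0, 32.2 and 31.2 counts in 5xFAD, against 24.7, 40.2 and 0 in WT, and its fold change of 0.07 on the log2 scale took either sign when single libraries were left out. Sdhd, a membrane anchor, had 28.9, 8.51 and 6.42 counts in 5xFAD, against 25.7, 26.1 and 26.0 in WT. The 3 WT libraries were almost equal for Sdhd and lay within the range of the 5xFAD libraries.

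Complex III, the cytochrome bc1 complex, is led by Uqcrh, the hinge protein that helps dock cytochrome c, and by the core protein Uqcrc1. Uqcrh had 52.9, 14.2 and 22.9 counts in 5xFAD, against 4.94, 22.1 and 5.20 in WT, and shares its table locus with 15 other genes, so the division of its reads is uncertain. Uqcrc1 had 24.9, 33.1 and 47.7 counts in 5xFAD, against 56.3, 27.1 and 33.3 in WT. Neither gene separated the groups. Uqcrb, an accessory subunit at the ubiquinone site, had 4.99, 5.68 and 9.17 counts in 5xFAD, against 0.989, 0 and 0 in WT, in a locus shared with other genes. The ratio of its summed counts, scaled to the totals, was 18.2 with an exact 95% counting interval of 2.92 to 756, and the edgeR adjusted p was 0.433. With the counts of its locus summed the log2 fold change was 0.47, against a fitted 3.81 for the gene alone (adjusted p = 0.857 by edgeR with the locus summed). Uqcrq, an accessory subunit, was counted in a single library, 5xFAD replicate 2, with 4.73 counts. The core protein Uqcrc2, named after its values were seen, had 11.5, 9.77 and 16.03 FPKM in 5xFAD, against 5.70, 3.47 and 8.999 FPKM in WT, without overlap, while its counts of 11.0, 15.1 and 28.4 in 5xFAD, against 19.8, 12.1 and 31.2 in WT, overlapped and gave a log2 fold change of -0.39. The FPKM of 1 count differed between libraries for this gene, which shares its locus with another gene.

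Complex IV, cytochrome c oxidase, has ubiquitous isoforms, isoforms known from muscle and testis, and shared subunits. Cox4i1, the ubiquitous form of subunit 4, had 20.9, 32.2 and 53.2 counts in 5xFAD, against 23.7, 22.1 and 42.6 in WT, and its log2 fold change was 0.08 ± 0.74 (edgeR, SE; adjusted p = 0.985). The table places it in a locus of 75 genes, so the division of its reads is uncertain. Cox6a1, the ubiquitous form of subunit 6a, had 46.9, 25.5 and 23.9 counts in 5xFAD, against 33.6, 12.1 and 3.12 in WT, and the groups overlapped. Cox7c, an accessory subunit, had 0.997, 13.2 and 3.67 counts in 5xFAD and 0 in all WT libraries, at least 5.45-fold higher in 5xFAD against the floor of 3 counts (adjusted p = 0.332 by edgeR).

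Cox8b, the muscle form of subunit 8, had the lowest edgeR log2 fold change among the tested subunit genes, -4.83. That value depends on the prior count because 5xFAD was at 0, and genes outside the subunit list had lower ones. It had 0 counts in all 5xFAD libraries, against 0, 10.04 and 0 in WT, so the value rests on WT replicate 2 alone. Its summed WT counts were 3.67-fold over the floor, which covers counting error only. WT replicates 1 and 3 were at 0 like the 5xFAD libraries, so no least fold between the genotypes follows. Cox7a1, Cox7b2 and Cox8c, known mainly from muscle and testis, were at 0 in all 6 libraries, as was the pseudogene Atp5l-ps1. Cox6a2, Cox6b2, Ndufa11, Ndufb4, Ndufb6, Ndufc1 and Uqcr11 had some counts but fell under the 1 FPKM minimum and were not tested. Among these, Ndufc1 had 2.99, 7.57 and 0 counts in 5xFAD, against 0 in all WT libraries, and Ndufa11 had 0, 4.73 and 10.1 counts in 5xFAD, against 3.95, 0 and 2.08 in WT.

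Complex V, ATP synthase, held the most strongly counted subunit genes. Atp5b, the catalytic beta subunit, had 140, 140 and 156 counts in 5xFAD, against 199, 138 and 137 in WT, and its log2 fold change was -0.23 ± 0.37 (edgeR, SE; adjusted p = 0.871). Atp5a1, the alpha subunit, had 29.9, 30.5 and 22.7 FPKM in 5xFAD, against 134, 47.2 and 87.1 FPKM in WT. Every 5xFAD library lay below every WT library on the FPKM scale. Its counts of 86.8, 145 and 79.8 in 5xFAD, against 238, 91.4 and 217 in WT, overlapped and gave a log2 fold change of -0.96 ± 0.41 (edgeR, SE; adjusted p = 0.347). The difference between the scales lies in the FPKM that 1 count was worth for Atp5a1, which was 0.345, 0.211 and 0.285 in 5xFAD, against 0.563, 0.516 and 0.401 in WT.

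Atp5j, coupling factor 6 of the peripheral stalk, had 6.98, 15.1 and 7.34 counts in 5xFAD, against 27.7, 35.2 and 49.9 in WT. All 3 5xFAD values lay below all WT values, with a log2 fold change of -2.14 ± 0.90 (edgeR, SE; adjusted p = 0.338). The table places it in a locus of 6 genes, and with the counts of that locus summed the log2 fold change was -0.46 (adjusted p = 0.580 by edgeR). Atp5h, subunit d of the same stalk and named after its values were seen, had 12.0, 15.1 and 7.34 counts in 5xFAD, against 0.989, 1.004 and 0 in WT. The ratio of its sums was 15.5 with an exact 95% counting interval of 3.98 to 133 (adjusted p = 0.393 by edgeR), so these stalk subunits ran opposite ways and neither was called. Atp5s, known in cattle and humans as coupling factor B, had 4.99, 0.946 and 11.9 counts in 5xFAD and 0 in all WT libraries, at least 5.43-fold higher in 5xFAD against the floor (adjusted p = 0.327 by edgeR).

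**Figure D3:**
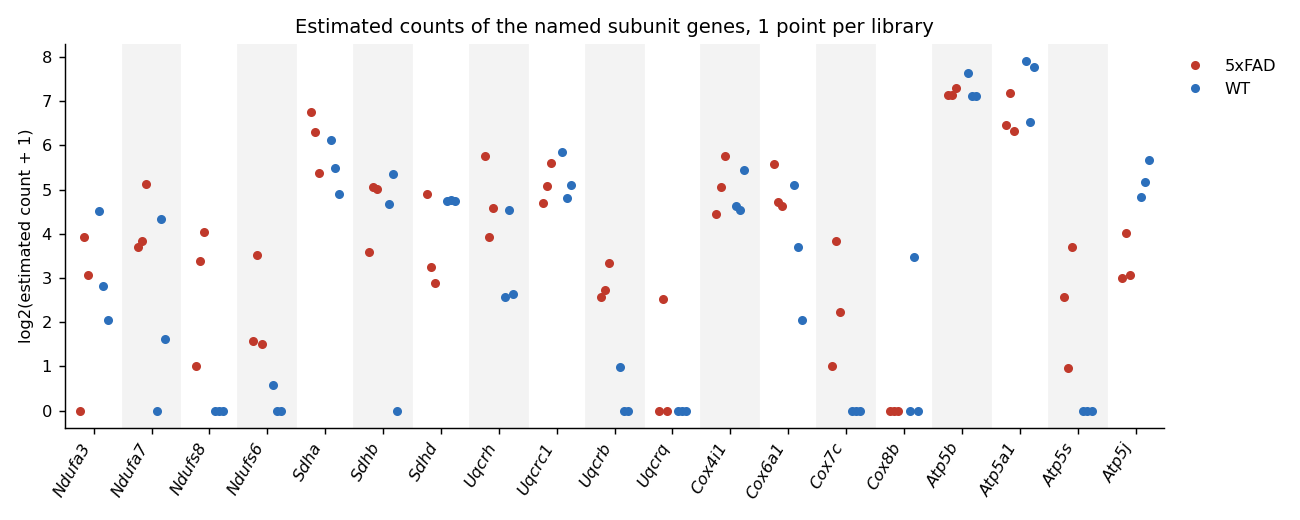
Estimated counts, as log2(count + 1), of 19 subunit genes of complexes I to V in each library, 5xFAD left and WT right in each column. Ndufs8, Cox7c and Atp5s are at 0 in all 3 WT libraries, Atp5j lies lower in every 5xFAD library, and strongly counted genes such as Atp5b overlap.

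Over all 75 tested genes, 17 (22.7%) had every 5xFAD FPKM above every WT FPKM, against 13% of all tested genes, and 3 (4%) had every 5xFAD FPKM below, against 4.42% of all. The 3 were Atp5a1, Atp5j and Uqcrfs1, the Rieske iron-sulfur protein of complex III, which had 2.41, 5.33 and 4.43 FPKM in 5xFAD, against 10.4, 5.66 and 15.1 FPKM in WT. Of the 17, 5 were genes counted in a shared locus. Ndufs8, Ndufs6, Uqcrq, Cox7c and Atp5s, 5 genes in all, were under 0.5 counts in every WT library (6.67% of the tested subunit genes, against 3.55% of all tested genes), and Cox8b was the single one under 0.5 counts in every 5xFAD library (1.16% of all). These 5, and 14 of the 17 above, averaged under 8.32 counts, the median of the tested subunit genes. Among genes so counted, 5 of 37 subunit genes were under 0.5 counts in every WT library, against 300 of 2203 tested genes. Every 5xFAD FPKM lay above every WT FPKM in 14 of those 37, against 424 of the 2203.

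The fold changes differed with the number of counts behind them. Divided at the members' median of 8.32 counts on average, the 38 genes with more counts had a median log2 fold change of 0.01, and 19 of them (50%) lay above 0. The 37 genes with fewer counts had a median of 1.63, and 28 of them (75.7%) lay above 0. Over all tested genes divided at the same count, the medians were 0.09 with more counts (53.7% above 0) and 0.33 with fewer counts (55.4% above 0). This division was chosen after the values were seen. In the 7 genes with at least 10 counts in every library (Atp5a1, Atp5b, Atp5sl, Cox4i1, Sdha, Uqcrc1 and Uqcrc2), 3 fold changes lay above 0 and the median was -0.23, against 0.06 for the 3152 tested genes so counted. In 41 of the 75 tested genes at least 1 library was under 0.5 counts, and in 32 of them WT replicate 3 was one of these. Without WT replicate 3 the median over 74 tested subunit genes was 0.63, against 0.02 over all tested genes, and 46 lay above 0.

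Short and long subunit genes were compared by the length of their longest annotated transcript, as annotated in GENCODE M21. Subunit transcripts are short, with a median of 1231 bases, against 3510 bases over all tested genes. The 38 genes of up to 1231 bases had a median log2 fold change of 1.05, with 25 above 0. The 37 longer genes had a median of 0.62, with 22 above 0. All tested genes divided at the same length had medians of 0.31 (683 genes) and 0.09 (8924 genes). Counts were fewer in the shorter subunit genes, at a median of 6.46 against 10.4 in the longer ones. By coding length, divided at 447 bases, the medians were 1.12 for the shorter and 0.31 for the longer subunit genes. In finer classes of transcript length the medians of the subunit genes did not fall steadily. They were 1.09 for the 14 genes of 500 to 750 bases, -0.31 for the 12 of 1500 to 2000 bases and 1.92 for the 7 of 3000 to 5000 bases. Those 7 had coding lengths of only 228 to 567 bases, and their longest annotated transcript need not be the one expressed. In 5xFAD replicate 1, 1 count was worth 1.09 FPKM for Atp5g1 (4715 bases), against 0.325 for Uqcrc1 (2473 bases). This class therefore cannot show how the medians run with length.

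The locus length of the deposited table gave another order. It is the span of a locus that can hold several genes, and 22 of the 86 subunit genes share a locus with other listed genes. Divided at 9581 bases, the 38 genes in shorter loci had a median of 0.70 and the 37 in longer loci a median of 0.98. Among the 55 tested genes alone in their locus, the 37 shorter had a median of 0.74 and the 18 longer a median of -0.00. The 20 tested genes in shared loci had a median of 1.21, with 16 above 0, against 0.62 and 31 of 55 for those alone. The differences between short and long genes were not tested.

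**Figure D4:**
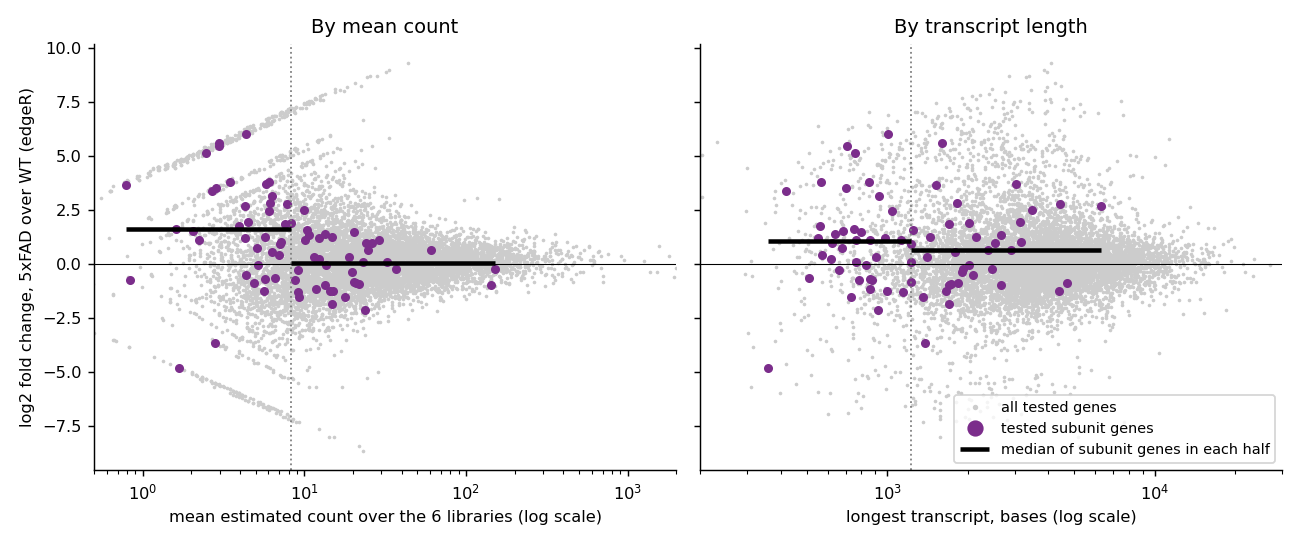
Log2 fold change of 5xFAD over WT (edgeR) against the mean estimated count (left) and the longest transcript (right), both on log axes, for the 75 tested subunit genes over all tested genes in grey; dotted lines mark the medians that divide the subunit genes and black bars the median fold change on each side. The bar lies at 1.63 left of 8.32 counts and at 0.01 right of it, and at 1.05 and 0.62 left and right of 1231 bases.

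The other genes of the pathway gave no call either. For the counts at an unadjusted p under 0.05 in these lists, the edgeR shares over all tested genes were 8.43% higher and 3.55% lower. Of the 13 subunits encoded by mitochondrial DNA, which are transcribed as long polycistronic RNAs, 6 had a fold change above 0, with a median of -0.17. At an unadjusted p under 0.05 by edgeR, 4 of the mitochondrial genes (mt-Nd4l, mt-Co2, mt-Co3 and mt-Atp8) were higher in 5xFAD and mt-Cytb was lower. All 4 were highest in 5xFAD replicate 2, and without that library 0 mitochondrial genes were higher or lower at that threshold. mt-Co1, the catalytic subunit of complex IV, had 1938, 502 and 2921 FPKM in 5xFAD, against 2551, 1790 and 2192 FPKM in WT. mt-Co2, the subunit that receives electrons from cytochrome c, had 11.7, 732 and 42.4 FPKM in 5xFAD, against 27.0, 19.9 and 33.2 FPKM in WT (edgeR adjusted p = 0.188). 5xFAD replicate 2 was also the lowest library for mt-Co1. mt-Nd2, a core subunit of complex I, had 1083, 1144 and 1567 FPKM in 5xFAD, against 1592, 1013 and 1381 FPKM in WT. The log2 ratio of summed nuclear to summed mitochondrial subunit FPKM was -3.20, -2.93 and -3.44 in 5xFAD, against -3.44, -3.33 and -3.85 in WT, so the groups met at 5xFAD replicate 3 and WT replicates 1 and 2.

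Of 29 tested assembly factors of 45 listed, 14 had a fold change above 0 with a median of -0.09, and 5 were higher and 2 lower at an unadjusted p under 0.05. Timmdc1, which helps assemble the membrane arm of complex I, had 0 counts in all 5xFAD libraries, against 18.8, 24.1 and 5.20 in WT (edgeR adjusted p = 0.243). Coa3, a complex IV assembly factor, had 23.9, 6.62 and 7.34 counts in 5xFAD, against 1.98, 0 and 0 in WT (edgeR adjusted p = 0.367). Cox17, a copper chaperone of complex IV, had 8.98, 35.9 and 16.5 counts in 5xFAD, against 31.6, 36.2 and 5.20 in WT, with overlap. Cycs, cytochrome c, had 19.9, 1.89 and 0.917 counts in 5xFAD, against 13.8, 8.04 and 0 in WT, also with overlap.

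Regulators of respiratory gene expression were mixed as well. Of 10 tested of 13, 6 had a fold change above 0 with a median of 0.64, and 1 was higher at an unadjusted p under 0.05. Nrf1, whose protein binds the NRF-1 letters above, had 22.9, 44.5 and 54.1 counts in 5xFAD, against 81.1, 77.3 and 48.9 in WT (adjusted p = 0.554 by edgeR). Pprc1, a coactivator of the PGC-1 family, had 118, 42.6 and 36.7 counts in 5xFAD, against 34.6, 81.4 and 22.9 in WT. Tfb2m, a mitochondrial transcription factor, had 8.98, 4.73 and 2.75 counts in 5xFAD and 0 in all WT libraries (edgeR adjusted p = 0.324).

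Of the 13 citrate cycle enzymes, all tested, 6 had a fold change above 0 with a median of -0.24, and 4 were higher at an unadjusted p under 0.05. Ogdh, of the oxoglutarate dehydrogenase complex, had 150, 106 and 144 counts in 5xFAD, against 131, 161 and 148 in WT. Suclg1, the alpha subunit of succinyl-CoA ligase, had 4.99, 33.1 and 20.2 counts in 5xFAD, against 0.989, 0 and 0 in WT (edgeR adjusted p = 0.290). Ribosomal protein genes, which are short like the subunit genes, gave 56 of 79 above 0 with a median of 0.33 for the cytosolic ribosome. At an unadjusted p under 0.05 by edgeR, 18 of these 79 were higher and 0 lower. For the mitochondrial ribosome 34 of 60 lay above 0 with a median of 0.08, and 5 were higher and 3 lower at that threshold. Over all tested genes the shares were 8.43% higher and 3.55% lower.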

How the data were processed

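Total RNA of 3 5xFAD and 3 WT samples of lung B cells was sequenced after ribosomal RNA depletion, per the labels' protocols. Tools named in the submitters' processing notes are HISAT2 2.0.4, cutadapt 1.9.3, Cuffdiff and Cufflinks, and the notes list GRCm38 and mm10 as builds. The counting tool and the annotation were not given in the sources used here. For each gene the deposited file gives an FPKM and an estimated count in each sample, and the length of the locus in bases, per the file headers; 94.0% to 97.3% of the counts are whole multiples, within 0.05, of 1 step per library, so the deposited counts were scaled by the authors. Values far under 1 count, and exact zeros, can be failed estimates. The kit is stranded, but whether counting used strand is not stated.

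Rows sharing a symbol were summed, leaving 22481 genes. Counts were rounded, and genes averaging 1 FPKM or more over the 6 libraries were tested by quasi-likelihood in edgeR 4.0.16 (trended dispersion, TMM scaling, no covariate; R 4.3.3), with Benjamini-Hochberg adjustment over all 9651 tested genes at 0.05. SE is the size of the log2 fold change over the root of F. A gene under 0.5 counts in all libraries of a genotype has its fold given against 3 counts over that group. Counting intervals and floors cover counting error only. DESeq2 1.42.0 and limma 3.58.1 with a pseudocount of 1 were alternatives. The edgeR step was tested on simulated data. Known folds were given there only to better counted genes, so the simulation does not cover the less counted subunit genes. No pair of libraries agreed within sampling noise (chi-square per degree of freedom 6.94 to 20.3). Transcript and coding lengths came from GENCODE M21, where 21839 of 22564 rows matched; promoters came from RefSeq, matched by gene ID. Subunits named are, per complex, the 2 with the highest mean FPKM and the 2 with the smallest p, plus the largest and smallest fold change; of other lists, the 2 highest and the 1 with the smallest p, except 1 gene that is not reported here. The subunit genes and the lists were chosen with earlier results of these data known. Atp5c1, Atp5k, Atp5l, Ndufab1 and Uqcrh have named pseudogene copies that could share reads.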

Additional observations from a re-analysis of the deposited data

How the results depend on the processing

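No subunit gene was called in any of the 19 alternative fits. At the depth reached, most subunit genes had under 10 counts in at least 1 library, and the common biological coefficient of variation was 0.752. Of 349 alternative values for the 19 named subunit genes, 339 kept their direction and side of the threshold. The reversed ones were Sdhb with loci summed (-0.017) and without 5xFAD replicate 2 (-0.16), 5xFAD replicate 3 (-0.25) or WT replicate 3 (-0.61), Cox4i1 with loci summed (-0.16) and without 5xFAD replicate 3 (-0.40), WT replicate 1 (-0.10) or WT replicate 2 (-0.13), and Ndufa3 (0.35) and Uqcrc1 (0.039) without WT replicate 1. Without single libraries the values spanned -1.62 to 0.35 for Ndufa3, -0.61 to 0.87 for Sdhb, -0.60 to 0.039 for Uqcrc1 and -0.40 to 0.46 for Cox4i1. They spanned 0.58 to 3.93 for Ndufa7, 0.10 to 0.92 for Sdha, -2.03 to -0.58 for Sdhd, 0.58 to 2.45 for Uqcrh, 0.40 to 2.01 for Cox6a1 and -0.36 to -0.089 for Atp5b, and with loci summed Uqcrb had 0.47 and Atp5j -0.46. The cause was not tested.

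Over all tested genes, 10 were called higher and 1 lower in 5xFAD. These counts were 6 higher with DESeq2 size factors, 54 and 8 with the DESeq2 test, 0 and 0 with limma at either pseudocount, 5 and 0 with a minimum of 5 FPKM, 53 and 9 with no filter, 18 and 4 with no scaling factors, 19 and 8 with upper-quartile factors, 0 lower with loci summed and 2 lower after thinning to one total. Leaving out single libraries gave 1 to 56 higher and 0 to 19 lower. Subunit genes higher at an unadjusted p under 0.05 (6 as reported) numbered 3 with DESeq2, 16 and 17 with limma at pseudocounts of 1 and 0.1, 0 with the 5 FPKM minimum and 2 to 8 without single libraries; those lower (3 as reported) numbered 0 to 3 without single libraries.

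The median log2 fold change of the subunit genes was 0.27 with the 5 FPKM minimum and 1.43 with limma and a pseudocount of 0.1, and 0.48 to 0.92 without single libraries. Complexes I to IV had 1.68, 1.34, 1.17 and 1.28 with that pseudocount; complex III had 0.68 with a pseudocount of 1; complex I had 0.34 and complex III -0.42 with the 5 FPKM minimum, and complex I had 0.75 with loci summed. Without single libraries, complex I ranged over 0.67 to 0.91, complex II over -0.15 to 0.69, complex III over -0.25 to 1.08, complex IV over -0.18 to 0.92 and complex V over 0.45 to 1.11. Genes in longer loci had 0.27 with loci summed and 0.30 with the 5 FPKM minimum, the longer genes by coding length had 0.31, and leaving out single libraries gave 0.41 to 0.84 for longer and 0.38 to 1.04 for shorter loci. The better counted subunit genes had 0.75 and 0.36 with limma at pseudocounts of 0.1 and 1 and -0.38 to 0.061 without single libraries; the less counted ones had 2.66 with the pseudocount of 0.1, 1.03 with loci summed and 0.95 to 2.36 without single libraries.

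Replicate numbers did not pair the samples: deviations of same-numbered libraries correlated at 0.01, 0.02 and -0.02. With a replicate block, 21 genes were called higher and 5 lower, and subunit genes at an unadjusted p under 0.05 numbered 0 higher and 2 lower. The division by mean count, the thinning and the division of counts by their step were added after seeing the data.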
